A study of Mus musculus with 8 samples.

Results

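Open chromatin was described here around 9 receptor genes of mouse splenic conventional dendritic cells, namely Cd2 and the SLAM family genes Ly9, Slamf7, Cd48, Slamf1, Cd84, Slamf6, Slamf9 and Slamf8. The members are 9 of 21887 protein-coding genes, and every ATAC-seq summit within a gene's span or 50 kb on either side was counted to it. These windows held 617 of the 600268 deposited summits. ATAC-seq inserts sequencing adapters into accessible DNA with the Tn5 transposase, and a summit is the point of highest signal in a called peak. The set was chosen by measured values, since Cd2 was selected on the difference in its summit number between cDC2 and cDC1 in these same lists. Therefore all subset values of the 9 genes are given as a description and without a test. The comparison of genotypes, KO against WT, played no part in the choice.

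The series has 4 groups of 2 libraries. They are cDC2 (XCR1-CD11b+) and cDC1 (XCR1+CD11b-), both sorted from spleen as lineage-negative CD11c+MHCII+CD64- cells, each from mice labelled HDAC1 Mx1-Cre (KO) and HDAC1 floxed (WT). HDAC1 is a histone deacetylase, an enzyme that removes acetyl groups from histones. All mice of both genotypes had received poly I:C, which turns on Mx1-Cre, and the cells were sorted 2 weeks later. The Mx1 promoter answers to interferon in many cell types, so the deletion is not limited to dendritic cells. The ages of the mice were not given in the labels. The labels do not say whether libraries of a group came from separate animals, and p-values then measure only the spread between these libraries.

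CD2 and the SLAM receptors are immunoglobulin superfamily proteins of blood cells that bind partners on neighbouring cells. Most SLAM receptors bind themselves, while CD48, a lipid-anchored protein, is the partner of CD2 in the mouse and of the receptor encoded by Cd244a. Tyrosine motifs in the tails of several of them recruit the small adaptors SAP (Sh2d1a) and EAT-2 (Sh2d1b1), through which they tune the contact between antigen-presenting cells, T cells and natural killer cells. SLAMF8 and SLAMF9 lack such motifs and are known from myeloid cells.

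The deposited lists held 61737 to 78296 summits in cDC2 and 74963 to 96031 in cDC1, and read depth was unknown. Every library was therefore cut to its best-scored 61737 summits, the length of the shortest list, and all values below come from these equal-length lists unless stated. The last summit kept scored 1.31 in WT cDC2 replicate 2, whose whole list was kept, and 7.21 in KO cDC1 replicate 2, of which 64.3% was kept. The lists are thus equal in length but not in lowest score. A gene at 0 has no called peak in its window, which does not show closed chromatin. The sums of the subset markers went with the labels. Within 1 kb of 8 cDC2 marker genes there were 32 to 35 summits in cDC2 libraries and 18 to 23 in cDC1 libraries. At 8 cDC1 marker genes there were 24 to 30 in cDC2 libraries and 42 to 45 in cDC1 libraries. The subsets separated at Sirpa, Clec4a4, Dtx1, Zeb2, Cd8a and Cadm1, the last with 11 to 15 in cDC2 and 23 to 27 in cDC1. At the other subset markers they overlapped. Among these were the genes of the sort markers, Xcr1 (0, 0, 1 and 0 in cDC2, 1, 1, 0 and 0 in cDC1, as KO, KO, WT, WT) and Itgam (5, 5, 5 and 7, and 5, 5, 6 and 4). Lists for other cells overlapped between the subsets for T cells (16 to 19 in cDC2 and 15 to 20 in cDC1, Cd3g at 0), natural killer cells (2 to 4 in both, Ncr1 and Gzmb at 0) and plasmacytoid dendritic cells (27 to 31 and 23 to 29, Ly6d and Klk1 at 0). The monocyte and macrophage list was higher in cDC2, with 18 to 21 summits in cDC2 and 12 to 17 in cDC1, and its part in the subset values below was not tested. By genotype the T cell list did not overlap, with 19 and 18 summits in KO cDC2 and 19 and 20 in KO cDC1, against 16 and 17 in WT cDC2 and 15 and 17 in WT cDC1. Of the B cell markers, 6 with a summit (Cd79a, Cd79b, Ms4a1, Pax5, Ebf1 and Blk) summed to 15 and 17 in KO cDC2, against 22 and 22 in WT cDC2, and to 23 and 20 in KO cDC1, against 21 and 20 in WT cDC1. Cd79a was at 0 in every cDC1 library. Hdac1 itself had 1 or 2 summits within 1 kb in every library, which does not check the deletion.

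Promoter sequences show what lies under the sites at the gene starts. The RefSeq promoter table of the GRCm38.p6 build, 250 bases before to 50 bases after a gene's start, held 7 of the 9 members. Summits lay inside this window in all 8 libraries for Slamf7, Slamf9 and Slamf8. The same held for 24.5% of 17492 genes in the table, and 50.9% had no summit there in any library. The Cd84 window had a summit in 6 of 8 libraries, and those of Cd48, Slamf1 and Slamf6 had none in the equal-length lists. Cd48 and Slamf6 each had a site of all 8 libraries outside this window but within 1 kb of a gene end. These were chr1:171681173-171681279 at Cd48 and chr1:171917678-171917792 at Slamf6. The promoters open in all libraries, that of Cd84 and, for contrast, that of Slamf1 are printed 5′ to 3′ on the strand of the gene, with matches to the motifs searched in capitals. They are Slamf7 at chr1:171648950-171649249 (minus strand), Slamf9 at chr1:172475110-172475409 (plus), Slamf8 at chr1:172590519-172590818 (minus), Cd84 at chr1:171839447-171839746 (plus) and Slamf1 at chr1:171766882-171767181 (plus).
Slamf7: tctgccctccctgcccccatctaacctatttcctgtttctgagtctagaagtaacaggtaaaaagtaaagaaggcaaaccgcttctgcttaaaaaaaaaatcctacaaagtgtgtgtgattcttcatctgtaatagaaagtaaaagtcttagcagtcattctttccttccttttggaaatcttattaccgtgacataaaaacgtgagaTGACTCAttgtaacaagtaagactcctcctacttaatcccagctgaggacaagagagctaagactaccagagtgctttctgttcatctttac
Slamf9: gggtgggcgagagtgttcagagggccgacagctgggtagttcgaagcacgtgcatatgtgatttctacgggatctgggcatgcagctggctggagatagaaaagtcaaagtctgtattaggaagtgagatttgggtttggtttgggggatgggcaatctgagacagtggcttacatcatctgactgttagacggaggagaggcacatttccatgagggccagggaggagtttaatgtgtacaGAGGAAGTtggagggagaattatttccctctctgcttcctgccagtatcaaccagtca
Slamf8: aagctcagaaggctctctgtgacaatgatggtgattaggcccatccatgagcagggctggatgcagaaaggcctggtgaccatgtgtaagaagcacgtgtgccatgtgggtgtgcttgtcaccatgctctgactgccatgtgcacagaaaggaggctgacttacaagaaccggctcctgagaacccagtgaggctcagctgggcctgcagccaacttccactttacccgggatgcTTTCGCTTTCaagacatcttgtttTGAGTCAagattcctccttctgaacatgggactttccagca
Cd84: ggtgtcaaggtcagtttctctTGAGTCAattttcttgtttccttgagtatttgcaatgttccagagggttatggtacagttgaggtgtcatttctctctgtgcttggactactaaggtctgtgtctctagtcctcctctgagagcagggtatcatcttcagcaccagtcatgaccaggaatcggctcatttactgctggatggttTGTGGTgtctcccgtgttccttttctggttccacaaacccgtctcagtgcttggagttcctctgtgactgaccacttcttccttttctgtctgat
Slamf1: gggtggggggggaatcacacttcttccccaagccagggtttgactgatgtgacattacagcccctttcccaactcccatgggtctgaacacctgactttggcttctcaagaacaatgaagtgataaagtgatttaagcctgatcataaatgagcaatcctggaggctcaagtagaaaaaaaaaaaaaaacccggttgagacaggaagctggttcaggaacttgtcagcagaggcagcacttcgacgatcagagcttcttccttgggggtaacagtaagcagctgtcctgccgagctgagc

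Base 1 of each sequence lies 250 bases before the gene's start. In Slamf7 the summits of the 8 libraries fell between bases 157 and 245. They lay at bases 157, 158, 158 and 161 in the WT libraries and at 185, 239, 244 and 245 in the KO libraries. The AP-1 match TGACTCA starts at base 209, between these positions, and no summit lay on it. The difference in position was not tested. In Slamf9 the summits fell between bases 180 and 239, and the PU.1 match GAGGAAGT starts at base 243, just outside it. In Slamf8 the summits fell between bases 193 and 238, with a reverse-strand match to the interferon response element (TTTCGCTTTC) from base 236 and an AP-1 match (TGAGTCA) from base 260. In Cd84 the summits of 6 libraries fell between bases 194 and 266, where a RUNX match (TGTGGT) starts at base 206, and an AP-1 match starts at base 22. The Slamf1 and Slamf6 windows held none of the motifs, and the Cd48 window held a RUNX match.
The motifs were searched on both strands as PU.1 (GAGGAAGT), the ETS-IRF composite, the interferon response element, AP-1 (TGANTCA), RUNX (TGTGGT), the TATA box (TATAAA) and the GC box (GGGCGG). Of all 32851 promoters in the table, 3.20% held the PU.1 letters, 2.72% the composite, 3.44% the interferon response element, 7.81% AP-1, 16.8% RUNX, 13.6% TATA and 35.7% the GC box. A match describes letters and is no binding site, and where none was found, only these letters are missing from this window.

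Cd2, the receptor for CD48 on T cells and other leukocytes, was the member with the widest gap between the subsets. Its window on chromosome 3 held 5 and 5 summits in KO cDC2 and 4 and 7 in WT cDC2, against 1 and 2 in KO cDC1 and 0 and 0 in WT cDC1. That is 5.25 ± 1.26 summits in cDC2 and 0.75 ± 0.957 in cDC1 (SD, n = 4 each), a difference of 1.98 in mean log2(summits + 1). All 4 cDC2 libraries lay above all 4 cDC1 libraries, which held for 1 of the 9 members and for 6.12% of all 17728 windows compared. None of these summits lay inside the gene itself, at chr3:101275908-101287939 (mm10), in any library. With all deposited summits the groups overlapped, at 7, 6, 4 and 7 summits in cDC2 (KO, KO, WT, WT) and 3, 5, 2 and 0 in cDC1 (KO, KO, WT, WT), since the longest list, KO cDC1 replicate 2, then held more than WT cDC2 replicate 1, and the log2 difference was 1.24.

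The Cd2 summits formed 8 sites, a site being summits of any library chained within 250 bp of each other. The strength of a summit is given as its rank percentile, the percent of summits in its own library with a lower score. A site 6032 bp past the upper end of the gene, chr3:101293958-101293985, was found in all 4 cDC2 libraries, at percentiles 58.5 and 68.4 in KO and 49.3 and 60.5 in WT. No cDC1 library had a summit there, in the deposited lists as well. A second site 12652 bp past the same end, chr3:101300490-101300692, was also found in the 4 cDC2 libraries only, at percentiles 59.9 and 51.2 in KO and 15.3 and 36.4 in WT. Of the cDC1 libraries, 1 had a summit there in its deposited list, below the equal-length cut. The site closest to the gene, chr3:101288150-101288286, lay 279 bp from its upper end and was shared by the 4 cDC2 libraries (percentiles 64.0 and 53.7 in KO, 22.7 and 20.5 in WT) and both KO cDC1 libraries (41.6 and 4.76). Both WT cDC1 libraries lacked a summit there. At the lower end, within 1 kb, a site at chr3:101274989-101274998 was found in both KO cDC2 libraries (21.9 and 36.2) and in no other library of the equal-length lists. A further site 4866 bp below the gene, chr3:101271019-101271065, was found in KO cDC2 replicate 2 (43.1), both WT cDC2 libraries (54.1 and 2.90) and KO cDC1 replicate 2 (35.6). The other 3 sites were each found in WT cDC2 replicate 2 alone, the library whose whole deposited list was kept.

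**Figure D1:**
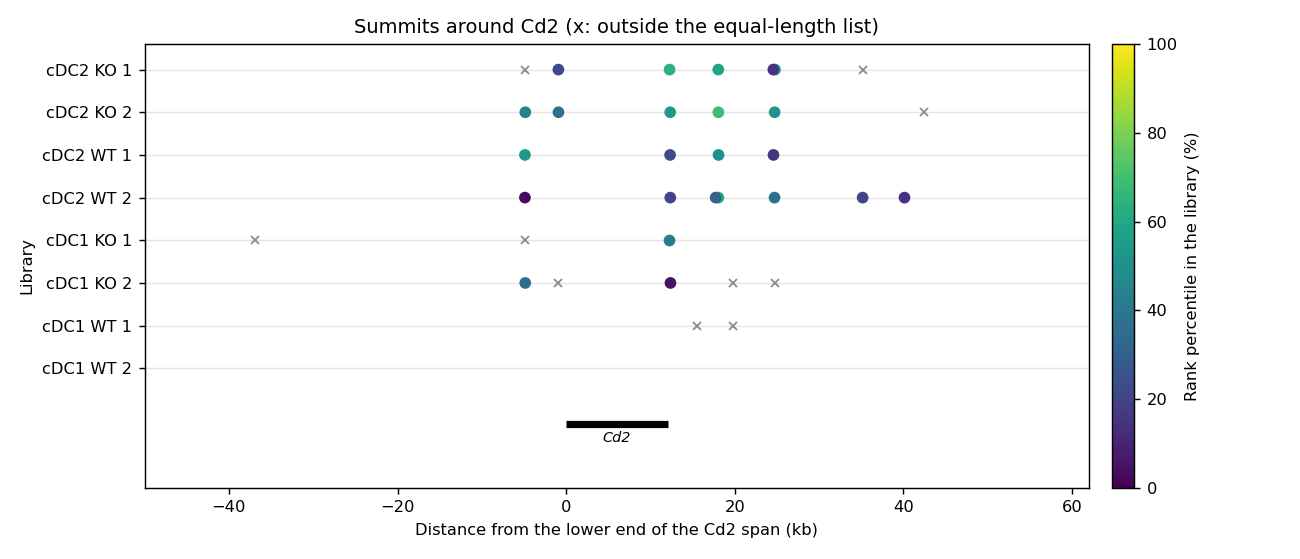
Summits of the 8 libraries (rows) along the Cd2 window, with distance in kb from the lower end of the gene on the x axis, the rank percentile as colour and crosses for summits outside the equal-length lists. The cDC2 rows carry 4 to 7 coloured summits and the cDC1 rows 0 to 2, and the bar of the Cd2 gene has none above it.

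The SLAM family genes showed no such gap in number. Over their windows on chromosome 1 together there were 59 and 56 summits in KO cDC2 and 69 and 56 in WT cDC2, against 63 and 64 in KO cDC1 and 63 and 62 in WT cDC1. This gives 60.0 ± 6.16 in cDC2 and 63.0 ± 0.816 in cDC1 (SD, n = 4 each). By gene, the difference in mean log2(summits + 1) between cDC2 and cDC1 ran from -0.32 at Slamf6 to 0.14 at Slamf8, beside 1.98 at Cd2, and the subsets overlapped in all 8 SLAM family genes. Windows with every cDC2 library below every cDC1 library made up 7.03% of all windows and 0 of the 9 members. The genes lie close together, so 47 of the 109 sites in the 9 windows belonged to more than 1 window, and the SLAM family counts are not independent of each other.

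**Figure D2:**
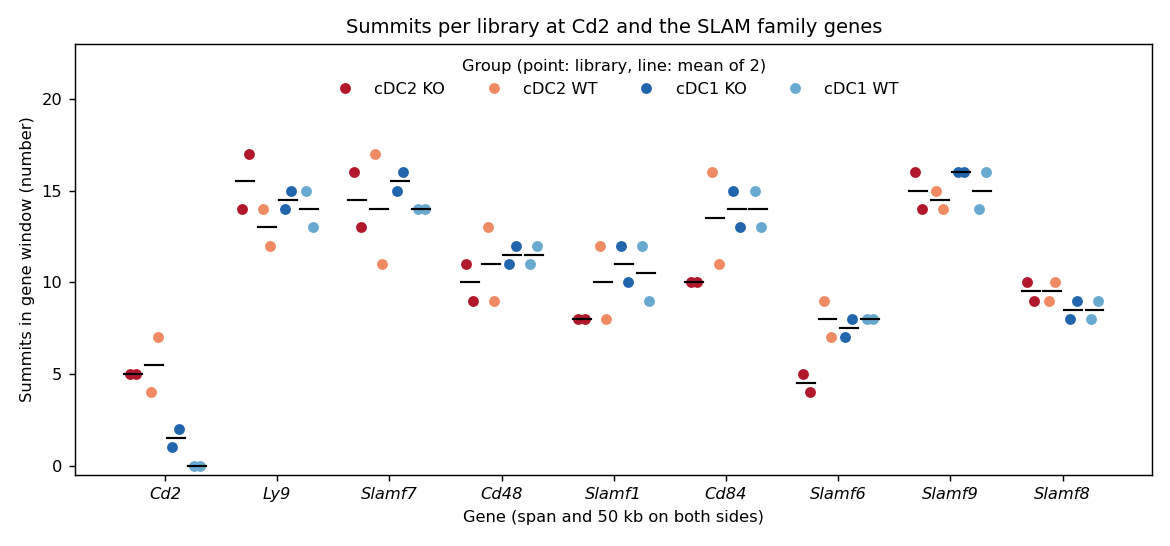
Summits per library (points) and the mean of 2 libraries (line) in the window of each of the 9 genes, for KO and WT cDC2 and KO and WT cDC1. At Cd2 the cDC2 points lie between 4 and 7 and the cDC1 points between 0 and 2, and the subsets overlap at the other 8 genes.

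Among the 109 sites, 34 were found in all 8 libraries, beside 26.4% of the 112443 sites of the whole genome. A further 5 were found in every cDC2 library and no cDC1 library (2.42% genome-wide), and 5 in every cDC1 library and no cDC2 library (4.33%). Of the remaining 65, 21 were found in 1 library. The Jaccard index, the shared sites over the sites found in either library, averaged 0.727 ± 0.0769 within the 4 groups, 0.692 ± 0.0262 over the 8 KO and WT pairs within a subset, and 0.539 ± 0.0178 over the 16 pairs of a cDC2 with a cDC1 library. Over all sites of the genome the same averages were 0.673, 0.659 and 0.518. Pairs share libraries, so these values carry no test.

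Ly9, a receptor that binds itself on neighbouring lymphocytes and myeloid cells, had similar numbers in both subsets. Its window held 14 and 17 summits in KO cDC2 and 14 and 12 in WT cDC2, against 14 and 15 in KO cDC1 and 15 and 13 in WT cDC1. A site between Ly9 and Slamf7, chr1:171617082-171617242, was found in cDC2 only, at percentiles 70.8 and 74.3 in KO cDC2 and 5.91 and 16.6 in WT cDC2. Both KO values lay above both WT values there, but the rank test needs a site in all 8 libraries and did not cover it. KO cDC1 replicate 2 had a summit at this site in its deposited list, below the equal-length cut. A site 1136 bp above the gene, chr1:171608514-171608578, was found in cDC1 only, at 6.18 and 22.1 in KO cDC1 and 9.85 and 39.97 in WT cDC1. These are low ranks. The site at the upper end of the gene itself, chr1:171607155-171607414, was found in all 8 libraries, at 21.2 and 12.8 in KO cDC2, 48.4 and 28.1 in WT cDC2, 49.4 and 19.98 in KO cDC1 and 42.6 and 52.2 in WT cDC1. The subsets overlapped at this site.

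Slamf7, known as CRACC, a receptor of natural killer cells and activated myeloid cells, carried the best-ranked cDC1-only site of the Ly9 to Slamf6 cluster. Its window held 16 and 13 summits in KO cDC2 and 17 and 11 in WT cDC2, against 15 and 16 in KO cDC1 and 14 and 14 in WT cDC1. The site inside the gene, chr1:171646649-171646713, was found in the 4 cDC1 libraries at percentiles 77.6 and 79.3 in KO and 85.1 and 82.6 in WT. No cDC2 library had it in the equal-length lists, and 1 had it in its deposited list. The promoter site, chr1:171649005-171649093, under which the sequence above lies, was found in all 8 libraries. It ranked lower in cDC2, at 64.2 and 42.6 in KO and 56.6 and 53.8 in WT, than in cDC1, at 65.2 and 77.3 in KO and 67.6 and 72.5 in WT, and the subsets did not overlap. At the other end of the gene the site chr1:171631639-171631704 stood between 74.1 and 77.1 in cDC2 and between 72.4 and 82.9 in cDC1. A site 3010 bp below the gene, chr1:171629346-171629441, went the other way and was found in cDC2 only, at 7.03 and 25.2 in KO cDC2 and 49.3 and 37.6 in WT cDC2.

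Cd48, the gene of the ligand for CD2, had 11 and 9 summits in KO cDC2 and 13 and 9 in WT cDC2, against 11 and 12 in KO cDC1 and 11 and 12 in WT cDC1. The site at the lower end of the gene, chr1:171681173-171681279, was found in all libraries. It stood at percentiles 60.9 and 54.8 in KO cDC2 and 53.0 and 39.5 in WT cDC2, against 23.1 and 7.04 in KO cDC1 and 7.32 and 17.3 in WT cDC1. All cDC2 values lay above all cDC1 values, with a difference of means of 38.4 points, the highest of the 34 shared sites. Another site 3844 bp below the gene, chr1:171677357-171677446, was found in cDC1 only, at 13.6 and 19.0 in KO cDC1 and 18.8 and 54.5 in WT cDC1, with the nearest deposited cDC2 summit 386 bp away. That summit belonged to a neighbouring site, chr1:171677832-171677880, found only in KO cDC2 replicate 1 (1.49) and WT cDC2 replicate 1 (39.98). The gap is shorter than 500 bp, so with chaining at 500 bp the flank site would not be cDC1-only. With chaining at 250 bp, the site at the gene end ranked higher in cDC2 and the flank site was found in cDC1 only.

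Slamf1, the founding SLAM receptor, which binds itself and bacterial surface proteins, had 8 and 8 summits in KO cDC2 and 12 and 8 in WT cDC2, against 12 and 10 in KO cDC1 and 12 and 9 in WT cDC1. Of 18 sites in its window, 6 were shared by all libraries and none was found in every library of 1 subset only. No summit lay within 1 kb of either end of the gene in the equal-length lists. The best-ranked shared site of its window lay nearer to Cd84, at chr1:171827825-171827893, with 65.8 to 81.3 in cDC2 and 50.01 to 67.01 in cDC1, and the subsets overlapped. A site between Cd48 and Slamf1, chr1:171735053-171735138, was shared and ranked lower in cDC2, at 11.6 and 20.3 in KO and 18.8 and 13.1 in WT, than in cDC1, at 47.1 and 68.2 in KO and 44.8 and 37.4 in WT. The subsets did not overlap there.

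Cd84, a receptor that binds itself and helps T and B cells stay in contact, had 10 and 10 summits in KO cDC2 and 16 and 11 in WT cDC2, against 15 and 13 in KO cDC1 and 15 and 13 in WT cDC1. Both KO cDC2 libraries were at the low end. A shared site inside the gene, chr1:171845508-171845652, stood higher in cDC2, at 61.3 and 37.7 in KO and 61.6 and 47.9 in WT, than in cDC1, at 6.65 and 37.1 in KO and 8.98 and 26.9 in WT. The lowest cDC2 value and the highest cDC1 value, both from KO libraries, were nearly equal. The promoter site, chr1:171839640-171839712, ranked low, at 11.6 and 1.10 in KO cDC2 and 43.3 and 22.2 in WT cDC2, and in cDC1 at 14.2 in 1 KO library and 51.8 in 1 WT library. A site next to it inside the gene, chr1:171840548-171840646, was found in all 4 cDC1 libraries (52.3 and 4.56 in KO, 30.4 and 28.2 in WT) but in cDC2 only in WT replicate 1 (14.3).

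Slamf6, a receptor of lymphocytes and of some myeloid cells that binds itself, had 5 and 4 summits in KO cDC2 and 9 and 7 in WT cDC2, against 7 and 8 in KO cDC1 and 8 and 8 in WT cDC1. The 2 KO cDC2 libraries were the lowest of the 8. Its start site inside the gene, chr1:171917678-171917792, was shared and stood at 76.8 and 66.7 in KO cDC2 and 81.5 and 84.9 in WT cDC2, against 88.1 and 89.5 in KO cDC1 and 89.4 and 89.5 in WT cDC1. All cDC2 values were lower than all cDC1 values. A site 11198 bp below the gene, chr1:171906227-171906293, differed more widely, at 20.1 and 40.1 in KO cDC2 and 50.6 and 22.2 in WT cDC2, against 82.9 and 63.2 in KO cDC1 and 67.2 and 68.6 in WT cDC1. Its difference of means of -37.2 points was the lowest among the shared sites. Between these lay a shared site, chr1:171915820-171915911, where the subsets overlapped, at 76.3 to 85.5 in cDC2 and 68.5 to 81.8 in cDC1. Above the gene, the site at chr1:171957468-171957575 was found in all 4 cDC1 libraries, at 70.5 and 76.3 in KO and 63.2 and 63.6 in WT, and in cDC2 in the WT libraries alone, at 46.1 and 0.0502. In the deposited lists KO cDC2 replicate 1 had a summit there too. A site 181 bp past the gene's upper end, chr1:171949139-171949139, was found in WT cDC2 replicate 1 alone, at 9.44.

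**Figure D3:**
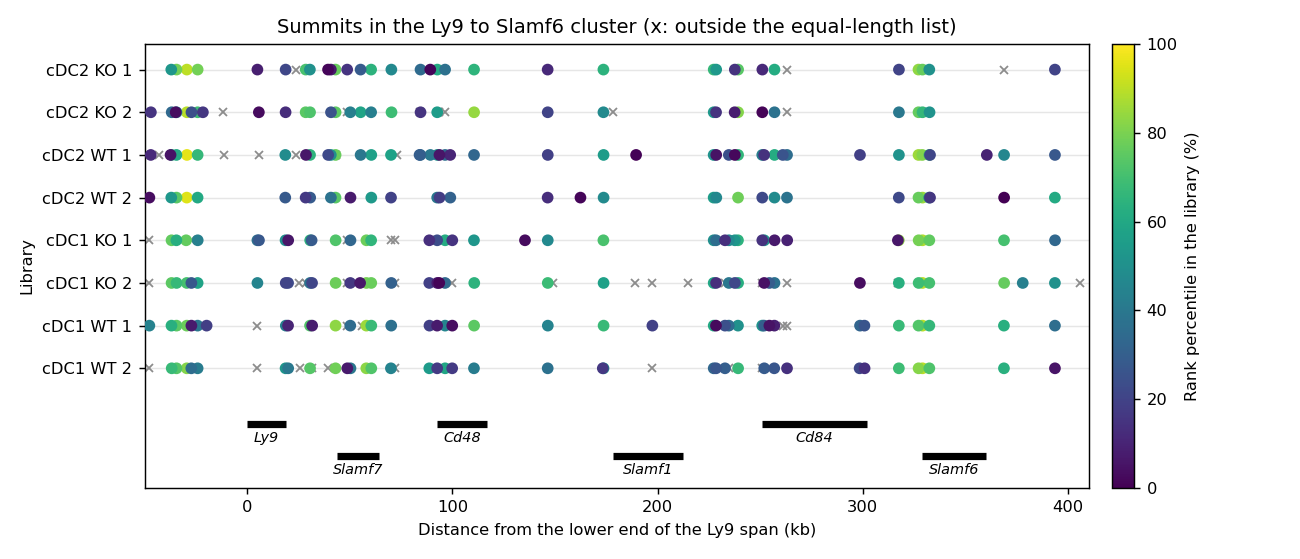
Summits of the 8 libraries (rows) from Ly9 to Slamf6, with distance in kb from the lower end of Ly9 on the x axis, the rank percentile as colour and crosses for summits outside the equal-length lists. The rows hold 32 to 45 coloured summits in cDC2 and 37 to 41 in cDC1.

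Slamf9 and Slamf8 lie apart from the cluster on the same chromosome, and 22 to 26 summits fell in their windows in every library. Slamf9, a receptor of myeloid and plasmacytoid dendritic cells, had 16 and 14 summits in KO cDC2 and 15 and 14 in WT cDC2, against 16 and 16 in KO cDC1 and 14 and 16 in WT cDC1. At the lower end of its annotated span, chr1:172458569-172478421, a site at chr1:172458694-172458705 was found in cDC1 only, at 81.7 and 75.4 in KO and 85.4 and 82.4 in WT. No cDC2 library had a summit there in its deposited list, and the nearest deposited cDC2 summit lay 648 bp away. That summit belonged to a weaker site, chr1:172459333-172459373, found in KO cDC2 replicate 1 (18.8), WT cDC2 replicate 2 (18.2) and KO cDC1 replicate 2 (6.01). With the Slamf7 site it was one of 2 cDC1-only sites whose 4 ranks all exceeded 75%. The promoter site, chr1:172475289-172475348, was shared and stood at 77.4 and 89.7 in KO cDC2 and 86.0 and 78.9 in WT cDC2, against 76.5 and 77.0 in KO cDC1 and 69.5 and 72.0 in WT cDC1. The best-ranked shared site of the window lay in Igsf9, chr1:172482012-172482130, at 80.04 to 92.5 in cDC2 and 86.6 to 94.0 in cDC1. So the cDC1-only site and the promoter site of Slamf9 went opposite ways, with the site at the lower end found in cDC1 and the promoter site ranked higher in cDC2. At the promoter site the lowest cDC2 value, 77.4, and the highest cDC1 value, 77.0, both from KO libraries, were nearly equal.

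Slamf8, known from activated macrophages, had 10 and 9 summits in KO cDC2 and 9 and 10 in WT cDC2, against 8 and 9 in KO cDC1 and 8 and 9 in WT cDC1. Its promoter site, chr1:172590581-172590626, was strong in every library, at 88.2 and 89.2 in KO cDC2, 93.5 and 88.4 in WT cDC2, 88.0 and 79.8 in KO cDC1 and 90.2 and 92.0 in WT cDC1. The subsets overlapped. A site 938 bp from the other end of the gene, chr1:172580431-172580448, was found in KO cDC2 replicate 1 (33.6) and WT cDC2 replicate 2 (11.3) alone. Inside the neighbouring gene Fcrl6, chr1:172602216-172602631 was found in cDC2 only, at 27.3 and 11.4 in KO and 63.9 and 37.9 in WT. Inside Cfap45, chr1:172542014-172542146 was found in cDC1 only, at 26.5 and 60.6 in KO and 51.8 and 49.6 in WT. In its deposited list KO cDC2 replicate 2 had a summit 92 bp away. The best-ranked shared site of all 9 windows lay by Dusp23, chr1:172633042-172633101, at 97.7 to 99.5 in cDC2 and 98.3 to 99.3 in cDC1.

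**Figure D4:**
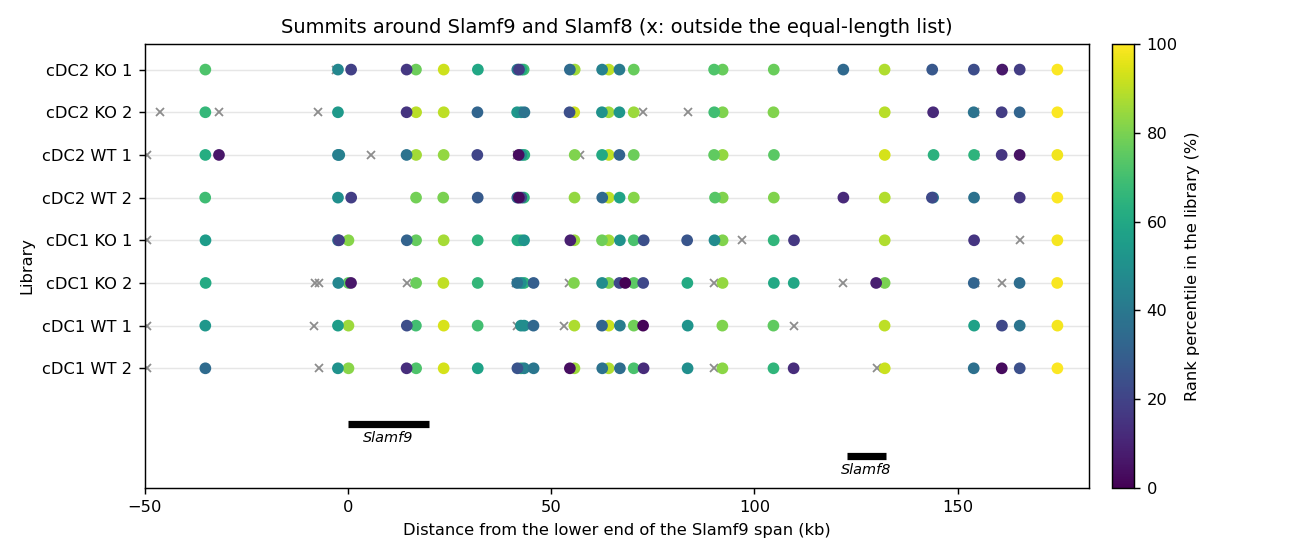
Summits of the 8 libraries (rows) from Slamf9 to Slamf8, with distance in kb from the lower end of Slamf9 on the x axis, the rank percentile as colour and crosses for summits outside the equal-length lists. Near 0 kb the 4 cDC1 rows carry a summit ranked between 75.4 and 85.4 that the cDC2 rows lack.

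Among the 34 shared sites, every cDC2 library ranked above every cDC1 library at 5, against 13.5% of the 29645 shared sites of the genome, and below at 5, against 11.6%. Higher in cDC2 were the sites at the Cd48 end, in Cd84, at the Slamf9 promoter, 35056 bp below Slamf9 and in Cd244a, and lower were those at the Slamf7 promoter, at the Slamf6 start, below Slamf6, between Cd48 and Slamf1 and 7025 bp below Cd244a. At the other 24 the subsets overlapped. With all deposited summits these counts were 0 above and 7 below. Percentiles are then taken over lists of unequal length, and the same rank gives a higher percentile in a longer list. These counts therefore do not decide whether the separations hold.

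The series asks what loss of HDAC1 does, and KO and WT libraries were compared with limma over all genes and sites. No member passed in any of the comparisons. Over both subsets 0 of 9 members passed an adjusted p of 0.05 (Benjamini-Hochberg), beside 0% of 17728 genes. The count was 0 of 9 also within cDC1 (0.00564% of genes called), within cDC2 (0%) and for the difference of the 2 effects (0%). At an unadjusted p under 0.05, limma had Cd2 and Slamf6 over both subsets, Cd2 in cDC1, Slamf6 in cDC2 and both for the difference, against 1198, 953, 998 and 690 of all genes. The median log2 difference of the members was 0.00 over both subsets, 0.05 in cDC1 and -0.08 in cDC2, beside 0.00, 0.00 and 0.00 over all genes. Every KO library lay above every WT library in 0 of 9 members (0.508% of all windows) and below in 0 of 9 (0.361%).

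In cDC1, Cd2 had 1 and 2 summits in KO and 0 and 0 in WT, a log2 difference of 1.29 (SE 0.291, limma adjusted p = 0.499). With the best 30868 summits of each list the difference was 0.00. The T cell marker list moved the same way in cDC1, at 19 and 20 in KO and 15 and 17 in WT, and its part in the Cd2 values was not tested. In cDC2 it had 5 and 5 summits in KO and 4 and 7 in WT, a difference of -0.08 (SE 0.291). Over both subsets the difference was 0.61 (SE 0.206, adjusted p = 0.611), and the 2 subset effects differed by -1.37 (SE 0.412, adjusted p = 1.0). Slamf6 had the lowest value over both subsets, -0.40 (SE 0.135, adjusted p = 0.62), and in cDC2, -0.71 (SE 0.191, adjusted p = 0.715). In cDC1 its difference was -0.08 (SE 0.191), and the 2 subset effects differed by -0.62 (SE 0.27). The sum of the B cell markers was low in the same KO cDC2 libraries, at 15 and 17 in KO cDC2 and 22 and 22 in WT cDC2. Pax5 had 6 and 7 summits in KO cDC2 and 11 and 10 in WT cDC2. Ms4a1 (1 and 1 against 2 and 2) and Ebf1 (4 and 3 against 4 and 5) were lower by less. Cd79a, Cd79b and Blk had equal sums in KO and WT cDC2. The part of these markers in the Slamf6 values, and in those of Cd84 in cDC2, was not tested. With the best 30868 summits the Slamf6 difference in cDC2 was -0.16 and over both subsets -0.02. For Cd2, the difference in cDC2 was then 1.0 and that between its 2 subset effects 1.0, both of opposite sign to the values above. The remaining 7 genes lay between -0.19 and 0.14 over both subsets. With narrower windows some moved further, none passing: Ly9 was at 0.50 with a flank of 10 kb and at 0.94 in its span (adjusted p = 0.58 and 0.33, limma), Cd84 at -0.60 and -0.61, and Slamf1 at -0.44 with the flank of 10 kb.

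The SLAM windows together held 60.5 ± 3.70 summits in KO and 62.5 ± 5.32 in WT (SD, n = 4 each), with p = 0.657 in a two-sided exact permutation test over libraries that cannot go below 0.0286. The Cd2 window held 3.25 ± 2.06 in KO and 2.75 ± 3.40 in WT (SD, n = 4 each), with p = 0.886 in the same exact test. No site was found in every KO library and no WT library (0.0836% of all sites), or the reverse (0.0694%).

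The ranks of the 34 shared sites were likewise tested by limma over all 29645 shared sites, and 0 passed in any of the 4 genotype comparisons (0% of all sites in each). At an unadjusted p under 0.05 there were 3 over both subsets, 3 in cDC1, 2 in cDC2 and 2 for the difference of the effects, against 3541, 2459, 2472 and 1451 of all shared sites. Every KO library ranked above every WT library at 0 of 34 (1.89% of all shared sites) and below at 0 of 34 (1.38%). The widest difference was at a site in Fcrl6, chr1:172612496-172612601, at 23.3 and 37.9 in KO cDC2 and 64.8 and 37.1 in WT cDC2, and at 15.3 and 31.9 in KO cDC1 and 57.2 and 36.7 in WT cDC1. Its KO mean was 21.8 points below the WT mean (limma difference -21.8, SE 9.88, adjusted p = 0.414). The Slamf8 promoter site differed by -4.71 points (SE 2.06, adjusted p = 0.399), and the Slamf6 start site by -6.06 (SE 2.89, adjusted p = 0.43).

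**Figure D5:**
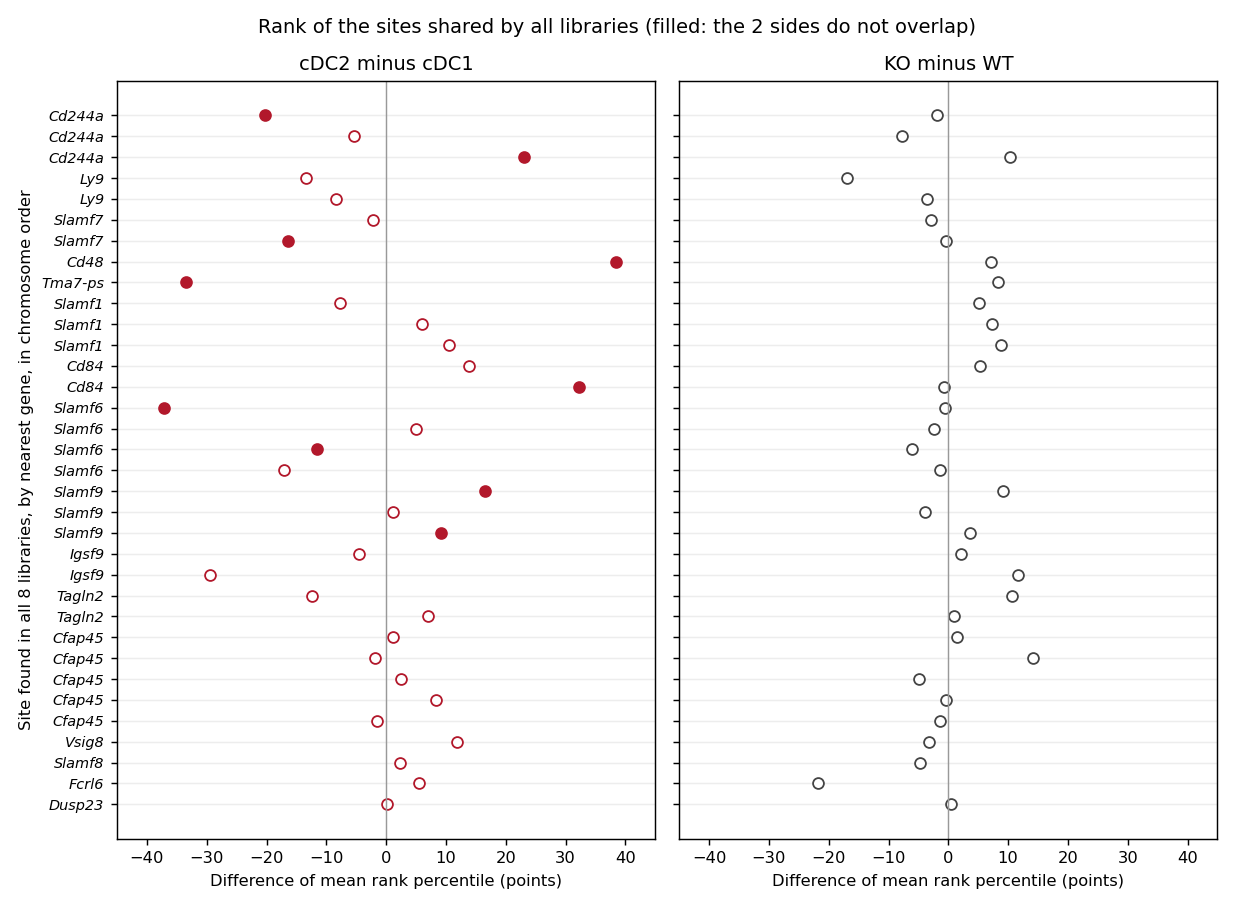
Differences of mean rank percentile at the 34 sites found in all libraries, cDC2 minus cDC1 at left and KO minus WT at right, in points, with filled circles where the 2 sides do not overlap. The subset differences run from -37.2 to 38.4 points with 10 filled circles, and the genotype differences from -21.8 to 14.2 with none.

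The partners and signalling genes of these receptors were read from a list of 17, all of which could be tested. Between cDC2 and cDC1, 0 of 17 passed as higher (5.61% of all genes) and 1 as lower (5.72%). With all deposited summits, or with a moderated variance trend, 2 passed as lower, and with the best 30868 summits 1 passed as higher and 0 as lower. The gene that passed was Pik3c3, the lipid kinase of early autophagy, with 6 and 5 summits in KO cDC2 and 5 and 5 in WT cDC2, against 8 and 8 in KO cDC1 and 7 and 9 in WT cDC1. Its log2 difference was -0.52 (SE 0.131, limma adjusted p = 0.0301). Leaving out any of 6 of the 8 libraries ended this call (it held without KO cDC2 replicate 1 or WT cDC1 replicate 1), with an adjusted p of up to 0.0943 without WT cDC1 replicate 2. The SAP gene Sh2d1a had 3, 2, 2 and 3 summits in cDC2 and 2, 5, 2 and 2 in cDC1 (KO, KO, WT, WT). Sh2d1b1 had 8, 12, 11 and 8 in cDC2 and 7, 9, 8 and 10 in cDC1, and the related Sh2d1b2 had 8, 13, 14 and 10 in cDC2 and 9, 12, 11 and 12 in cDC1. The subsets overlapped for all of these adaptors. Cd244a, which shares part of its window with Ly9, had 13, 14, 14 and 11 in cDC2 and 11, 11, 12 and 10 in cDC1. Between KO and WT, 0 of the 17 passed in each of the 4 comparisons, with a median log2 difference of 0.00 over both subsets.

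The 5 genes whose log2(summits + 1) over the 8 libraries was most like that of Cd2 were Fam174b (Pearson r = 0.985), Fst (0.984), Mbtps2 (0.980), Fgd5 (0.979) and Armcx4 (0.979), among 6498 genes of similar mean, of which 105 reached 0.9. Fst, the gene of the activin binder follistatin, had 3 and 3 summits in KO cDC2 and 2 and 3 in WT cDC2, against 1 and 1 in KO cDC1 and 0 and 0 in WT cDC1. These are small numbers in shared libraries, so the likeness is a description. For Ly9, none of 8880 genes reached 0.9, and the closest were Tmem147 (0.895), Myo7a (0.887), Mef2d (0.882), Prdx1 (0.880) and Lyl1 (0.873).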

How the data were processed

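ATAC-seq was measured in 8 libraries in 4 groups of 2. Per the submitters' processing notes, alignment to GRCm38 (mm10) and peak calling by the authors involved Bowtie2, MACS2, SAMtools and MultiQC. Settings and versions are not given in the sources used here. The deposited lists give each summit with a −log10 score of the p or q type, the authors' own value per peak. Scores rise with depth, which is unknown, so summits were only ranked by them inside each library, and no counting interval could be given.

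Summits were counted in windows of gene span and 50 kb from the GRCm38.p6 RefSeq table, which gives no exons, so a split into exon and intron was not made. Genes averaging under 1 summit were left out, and log2(summits + 1) of the other 17728 was fitted with limma 3.58.1 (R 4.3.3), with a mean per group and a variance of 0.0833 squared summits, for rounding to whole numbers, added to each residual variance. Rank percentiles of the 29645 sites found in all libraries were fitted with a variance trend. Adjusted p-values are Benjamini-Hochberg values over all genes or sites at a threshold of 0.05. Permutation tests used scipy 1.17.1. The members, lists and tests were chosen with earlier results of these data known. Named were all members, their sites within 1 kb of a gene end, sites found in 1 subset only, the best-ranked shared sites, the pathway genes that passed and the adaptors. The other sites given, those with subsets that did not overlap among them, were named after their values were seen. One marker gene is not reported here. The alternatives are given in the closing section.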

Additional observations from a re-analysis of the deposited data

Results flagged for a closer look

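At 3 of the 34 shared sites both KO libraries of 1 subset lay on the other side of their WT libraries than in the other subset. The share of all 29645 shared sites with this pattern was not counted, so these sites are not shown to be particular to the members. At chr1:171551591-171551795, below Cd244a, the KO minus WT difference in cDC2 minus that in cDC1 was -23.7 points of rank percentile. At chr1:172482012-172482130, in Igsf9, it was 14.5 points, and at chr1:172514162-172514357, near Cfap45, 11.1 points. The limma test of the difference gave an adjusted p of 0.983 at each, so none passed, beside 0% of all shared sites.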

How the results depend on the processing

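The number of members called between KO and WT stayed at 0 in all 4 comparisons under every alternative run. Summit numbers of 2 libraries a group are coarse, and their depth is unknown. With all deposited summits, or summits in the gene span only, 0 members had every cDC2 library above every cDC1 library, and Cd2 was not tested in the span alone. Every cDC2 library lay below in 1 member with the best 30868 summits of each list, and in 0 to 2 when single libraries were left out (2 without WT cDC2 replicate 1). The subset difference of Cd2 was 1.24 with all deposited summits, 1.5 with the best 30868, 1.51 with a flank of 10 kb and 2.52 with a pseudocount of 0.5. The cDC2-only sites numbered 1 with the best 30868, 2 with chaining at 100 bp, 3 with a flank of 10 kb and 0 in the spans. The cDC1-only sites numbered 3 with the best 30868, 4 with chaining at 500 bp and 2 in the spans. KO-only sites numbered 0 to 1 without single libraries (1 without KO cDC2 replicate 2 or WT cDC2 replicate 1). With all deposited summits 0 shared sites ranked higher in every cDC2 library, with percentiles taken over lists of unequal length.

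Directions of several KO minus WT differences turned. Most were small, but the difference between the effects of Cd2 in cDC2 and cDC1 was wide, at -1.37 in the equal-length lists. With all deposited summits they were 0.18 for Cd48, 0.0598 for Slamf6 in cDC1, 0.24 for Cd2 in cDC2 and 2.75 summits for the SLAM windows. With the best 30868 they were 0.32 for Cd48, 0.40 for Slamf1, 0.12 for Cd84, 0.11 for Slamf6 in cDC1, 1.0 for Cd2 in cDC2, 1.0 for the difference of its effects and 3.25 summits for the SLAM windows. With summits given to the nearest gene, Slamf6 in cDC1 was at 0.22. Pik3c3 no longer passed with the best 30868, a flank of 10 kb, the span alone or the nearest gene. The cause was not tested.
Leaving out single libraries moved the KO minus WT difference of Slamf7 between -0.0428 (without WT cDC2 replicate 2) and 0.25. That of Cd48 lay between -0.177 and 0.0658 and that of Slamf1 between -0.23 and 0.0344, positive without WT cDC2 replicate 1. Cd2 in cDC2 lay between -0.415 and 0.263, positive without WT cDC2 replicate 2. The SLAM windows lay between -4.17 and 0.167 summits, and the Cd2 window between -0.417 and 1.92 summits.

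The labels do not say whether same-numbered libraries were paired. Deviations of same-numbered libraries correlated at 0.00388 to 0.0644 over genes. With coarse counts and 2 libraries a group this cannot decide whether they were paired. With the replicate number as a block, the KO minus WT difference of Cd2 was 0.61 (SE 0.177, adjusted p = 0.349), and 0 members were called.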
